A study of Arabidopsis thaliana with 6 samples.

Results

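Transcript levels of 5 antioxidant and redox repair genes were followed in Arabidopsis thaliana seedlings grown in light, with added hydrogen peroxide (H2O2) in darkness, or in plain darkness. The genes were chosen by name, with earlier results of these data known. They include GR1 (AT3G24170, a glutathione reductase), TAPX (AT1G77490, the thylakoid ascorbate peroxidase) and AT3G11630 (a 2-Cys peroxiredoxin). The others are MSRB6 (AT4G04840, a methionine sulfoxide reductase) and GRX480 (AT1G28480, a glutaredoxin). Each of the 5 is read by 1 single-gene probe set, so that all 5 were measured. There were 13355 genes with such a probe set and 22746 probe sets tested. A gene counts as measured where the annotation used names a probe set for it alone. As 8730 probe sets had no gene name here, a gene not measured may still have a probe set on the array. All seedlings were wild type of the accession Col-0, were raised on MS-based medium, and were harvested whole at an age of 7 days. The light group had 16 h of light and 8 h of dark each day, the H2O2 group was kept in darkness with 5 mM H2O2, and the dark group was kept in darkness with none. Each group had 2 biological replicates, and each replicate was hybridised to 1 Affymetrix ATH1 array. The sources used here give neither the time at which H2O2 was added and how long it acted, nor the number of seedlings in a replicate. Per the series description, growth in darkness was meant to keep the seedlings' own H2O2 low, which makes the dark group the background for both other conditions.

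Plant cells remove H2O2 with peroxidases that draw electrons from small reductants. Ascorbate peroxidases spend ascorbate, and the ascorbate-glutathione cycle restores it with glutathione, which glutathione reductase then regenerates at the cost of NADPH. Peroxiredoxins instead use a reactive cysteine that thioredoxins or the chloroplast reductase NTRC reduce again. Methionine sulfoxide reductases repair methionines that have been oxidised in proteins, and glutaredoxins exchange thiols and disulfides with glutathione as the electron source. In leaves, photosynthetic electron transport is a main source of H2O2, and TAPX and the 2-Cys peroxiredoxins work inside the chloroplast.

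Levels and differences are on the log2 scale, where 1 unit stands for 2-fold. Levels of different probe sets are not set against each other. Dim stands for a group mean below 5.16, the 40th percentile of probe set means, and a difference that involves a dim level has an uncertain size. Replicate arrays correlated at 0.993 to 0.995 over all probe sets. Leaf photosynthesis genes checked as markers (RCA, PRK, SBPASE, LHCB4.1 and LHCB4.2) were above the dim bound in every group. Their mean log2 level was 12.94 to 12.98 on the light arrays, 10.5 to 10.73 on the H2O2 arrays and 10.29 to 10.3 on the dark arrays. The median signal of bacterial hybridisation controls was 8.68 to 9.54 in light, 8.96 to 9.08 with H2O2 and 9.47 to 10.13 in the dark. Centring the arrays on these controls, called control centring here, adds 0.69 to every light minus dark difference. It adds 0.78 to every H2O2 minus dark difference and takes 0.089 from every light minus H2O2 difference. The control medians also differed between replicates of a group. Control centring adds that shared array spread to the error of every probe set, so its adjusted p-values partly measure that spread. The values below are the deposited ones, relative to the other transcripts on the array, and they are also given under control centring where it ends a call, turns a direction or moves a called value of a named gene by over 1.5 times.

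All 5 genes differed between light and dark: 4 were higher in light and 1, GRX480, was lower. By the same limma test, 48.0% of all tested probe sets were called between light and dark, 23.0% higher and 25.0% lower. With H2O2 in the dark, only GR1 of the 5 rose and none was called lower, against 20.5% of all probe sets called, with 12.3% higher and 8.18% lower. Between light and H2O2, 3 of the 5 were higher in light, 1 was lower and GR1 was not called, against 39.5% of all probe sets called, with 17.4% higher and 22.0% lower. Of the called probe sets, 48.0% were higher in light than in the dark, 60.0% with H2O2 than in the dark and 44.2% in light than with H2O2, against 88.2%, 98.9% and 54.4% under control centring. The median log2 difference of the 5 genes was 1.96 for light minus dark, 0.19 for H2O2 minus dark and 1.85 for light minus H2O2, and that of all tested probe sets was -0.064, -0.022 and -0.058. The arrays of the groups did not overlap for any of the 5 genes between light and dark or between light and H2O2, and for 4 of 5 between H2O2 and dark. Over all probe sets the arrays did not overlap for 72.7%, 67.7% and 61.1%, in the same order. The comparisons share arrays with each other, so that their values are given side by side and not as separate evidence. As the 5 genes were chosen with earlier results of these data known, their values beside those of all probe sets are descriptive only.

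**Figure D1:**
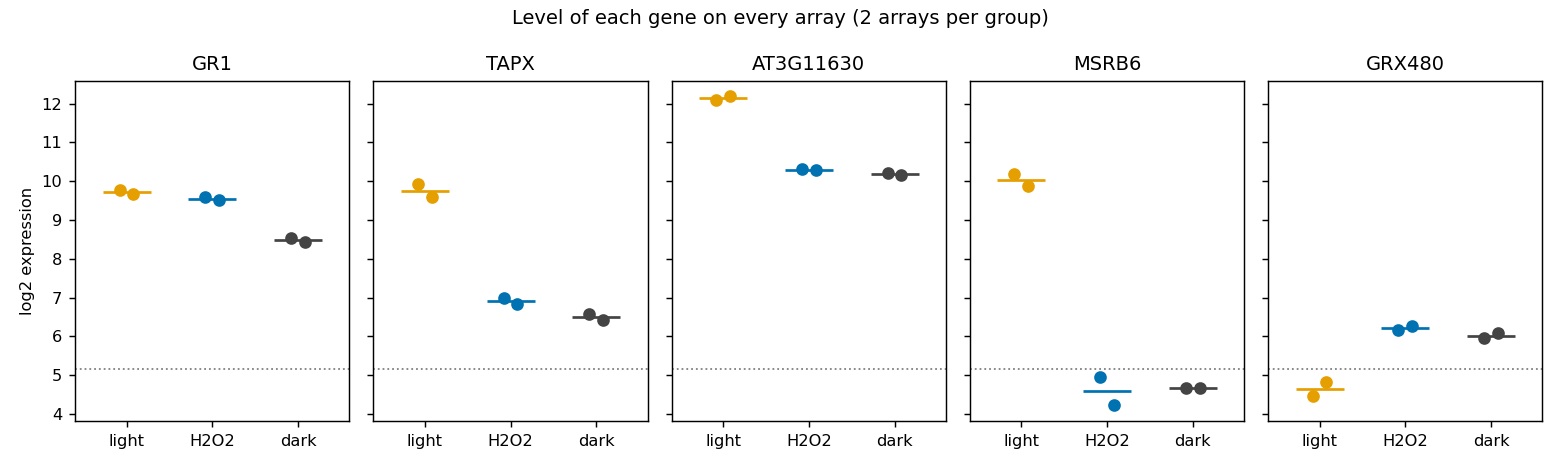
Log2 expression of the 5 genes on each of 6 arrays, with light, H2O2 and dark from left to right; points are arrays (n = 2 per group), short lines are group means and the dotted line is the dim bound of 5.16. GR1 is high in both light and H2O2, TAPX, AT3G11630 and MSRB6 are high in light alone, and GRX480 is lowest in light.

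GR1 encodes the glutathione reductase of the cytosol and peroxisomes, and it was the single one of the 5 genes that rose with added H2O2. Its log2 level was 9.77 and 9.67 on the light arrays, 9.60 and 9.50 on the H2O2 arrays, and 8.53 and 8.43 on the dark arrays. Both dark arrays lay well under all other arrays, and the light and H2O2 arrays lay close together without overlapping. GR1 rose by 1.07 ± 0.13 with H2O2 (SE of the fit, n = 2 arrays per group, limma adjusted p = 0.000998), a 2.10-fold rise with a 95% confidence interval of 1.71 to 2.58. Of all tested probe sets, 3.13% rose more. In light it was higher than in the dark by 1.24 ± 0.13 (limma adjusted p = 4.94e-05), and 9.74% of probe sets had a larger rise. Light minus H2O2 was 0.17 ± 0.13, which was not called (limma adjusted p = 0.365). The 95% interval of that difference ran from -0.13 to 0.46, so a light level up to 0.46 above the H2O2 level is within the error. Both calls of GR1 stayed when any 1 array was left out, with an H2O2 minus dark difference of 1.02 to 1.12. The light minus dark difference became 1.93 and the H2O2 minus dark difference 1.85 under control centring, and both were called.

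The other measured glutathione reductase gene, GR (AT3G54660, also called ATGR2), encodes the enzyme of plastids and mitochondria. GR had 10.27 and 10.47 in light, 9.13 and 8.99 with H2O2, and 9.11 and 9.22 in the dark, so that the H2O2 and dark arrays overlapped. In light GR was higher than in the dark by 1.20 ± 0.14 (limma adjusted p = 9.2e-05), close to the value of GR1. H2O2 minus dark was -0.10 ± 0.14 for GR and was not called (limma adjusted p = 0.671), with a 95% interval of -0.42 to 0.21 that lies under the interval of 0.78 to 1.37 for GR1. Light minus H2O2 was 1.31 ± 0.14 for GR (limma adjusted p = 7.49e-05), where GR1 was not called. Under control centring, with its shared array spread, the GR value was 1.22 and not called (limma adjusted p = 0.0937). The difference between the 2 genes was not tested. Under the same centring light minus dark of GR was 1.89 and called, and H2O2 minus dark turned to 0.68 and was not called.

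Root hair and seed reserve transcripts also moved with H2O2. The mean log2 level of 2 root hair genes, EXPA7 and EXPA18, was 6.44 to 6.64 in light, 4.05 to 4.14 with H2O2 and 5.24 to 5.86 in the dark. That of the seed reserve genes OLEO3 and PAP85 was 4.02 to 4.3 in light, 6.53 to 7.33 with H2O2 and 5.27 to 5.29 in the dark. The lower mean in light came from OLEO3 alone. Light minus dark was -2.60 for OLEO3, which was called, and 0.35 for PAP85, which was not. Both root hair genes were called lower and both seed reserve genes higher with H2O2. The root hair genes were dim with H2O2 and PAP85 was dim in the dark, so the sizes of these differences are uncertain. PAP85 had 7.08 and 5.51 on the H2O2 arrays, far apart, and 3.65 and 3.43 on the dark arrays. Under control centring PAP85 alone was still called, at 3.53, beside -0.68 for EXPA7, -0.68 for EXPA18 and 1.32 for OLEO3. The OLEO3 call also ended without dark replicate 1 (limma adjusted p = 0.15), H2O2 replicate 1 (0.123) or H2O2 replicate 2 (0.117). The part of these transcripts in the GR1 rise was not tested. In whole seedlings, fewer cells of a type and less RNA per cell cannot be told apart.

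TAPX encodes the ascorbate peroxidase anchored in the thylakoid membrane, where photosynthetic electron transport runs. Its log2 level was 9.93 and 9.59 on the light arrays, 7.00 and 6.83 on the H2O2 arrays, and 6.59 and 6.42 on the dark arrays. The light arrays stood far above the rest, and the H2O2 arrays lay a little above the dark arrays without overlap. TAPX was higher in light than in the dark by 3.25 ± 0.16 (SE, 2 arrays in each group, limma adjusted p = 5.85e-07), which is 9.53-fold with a 95% interval of 7.44 to 12.2. Only 1.22% of tested probe sets had a larger rise. Light minus H2O2 was 2.85 ± 0.16 (limma adjusted p = 1.69e-06). H2O2 minus dark was 0.41 ± 0.16 and was not called after adjustment over all probe sets (limma adjusted p = 0.106). The unadjusted p was 0.0302 and the 95% interval ran from 0.049 to 0.77. SAPX, the ascorbate peroxidase of the stroma and the one other member of its family measured, differed less: light minus dark was 0.54 ± 0.14 (limma adjusted p = 0.0105) and H2O2 minus dark 0.29 ± 0.14 (limma adjusted p = 0.19). The SAPX call in light ended without dark replicate 1 (limma adjusted p = 0.0601), without light replicate 1 (0.0711) or under control centring (1.23, 0.0504). The confidence intervals of TAPX and SAPX for light minus dark, 2.90 to 3.61 and 0.22 to 0.86, do not meet, and the difference between them was not tested.

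AT3G11630 encodes a 2-Cys peroxiredoxin of the chloroplast. Its log2 level was 12.10 and 12.18 in light, 10.30 and 10.28 with H2O2, and 10.22 and 10.16 in the dark. The light arrays were high, and the H2O2 arrays lay only just above the dark arrays, without overlap. Light minus dark was 1.96 ± 0.13 (limma adjusted p = 2.54e-06), a 3.88-fold difference with a 95% interval of 3.19 to 4.73, and light minus H2O2 was 1.85 ± 0.13 (limma adjusted p = 5.01e-06). H2O2 minus dark was 0.10 ± 0.13 and was not called (limma adjusted p = 0.623). Its 95% interval of -0.18 to 0.39 leaves room for a rise of up to 1.31-fold.

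NTRC, the NADPH-dependent thioredoxin reductase that passes electrons to 2-Cys peroxiredoxins in the chloroplast, moved with H2O2 as well as in light. It had 9.79 and 9.83 in light, 7.59 and 7.51 with H2O2, and 6.56 and 6.70 in the dark, with no overlap among the groups. NTRC was higher in light than in the dark by 3.18 ± 0.13 (limma adjusted p = 2.93e-07), and it rose with H2O2 by 0.92 ± 0.13 (limma adjusted p = 0.00193), which was 1.70 and called under control centring. SRX, sulfiredoxin, which rescues peroxiredoxins whose cysteine has been overoxidised by H2O2, was higher in light by 1.23 ± 0.16 (limma adjusted p = 0.000225). H2O2 minus dark of SRX was -0.046 ± 0.16 and was not called (limma adjusted p = 0.888). All 5 measured genes on the list of peroxiredoxins and their reductants, AT3G11630 included, were higher in light, and the other 2 were AT3G52960 at 0.94 and the mitochondrial PRXIIF at 0.40. The PRXIIF call ended in 4 of the 6 fits without 1 array, with a limma adjusted p of up to 0.109, and under control centring (1.09, 0.0945). Under that centring light minus dark was 1.92 for SRX and 1.63 for AT3G52960, both called. With H2O2 the median of these 5 was -0.046, which turns positive under control centring, and NTRC was the one gene called.

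The leaf photosynthesis markers rose with TAPX, AT3G11630 and NTRC in light: all 5 were called higher than in the dark, by 1.22 to 4.01 with a median of 2.94. With H2O2, 1 of the 5 was called, PRK, which rose by 0.67 ± 0.14 (limma adjusted p = 0.0118), and the median of the list was 0.32. The PRK call with H2O2 ended without dark replicate 2 (limma adjusted p = 0.0839), H2O2 replicate 1 (0.0713) or H2O2 replicate 2 (0.069), and under control centring it was kept at 1.45. LHCB4.1 had a light minus dark of 1.22 that was 1.91 and called under control centring. The part of the photosynthesis transcripts in the differences of TAPX, AT3G11630 and NTRC was not tested.

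**Figure D2:**
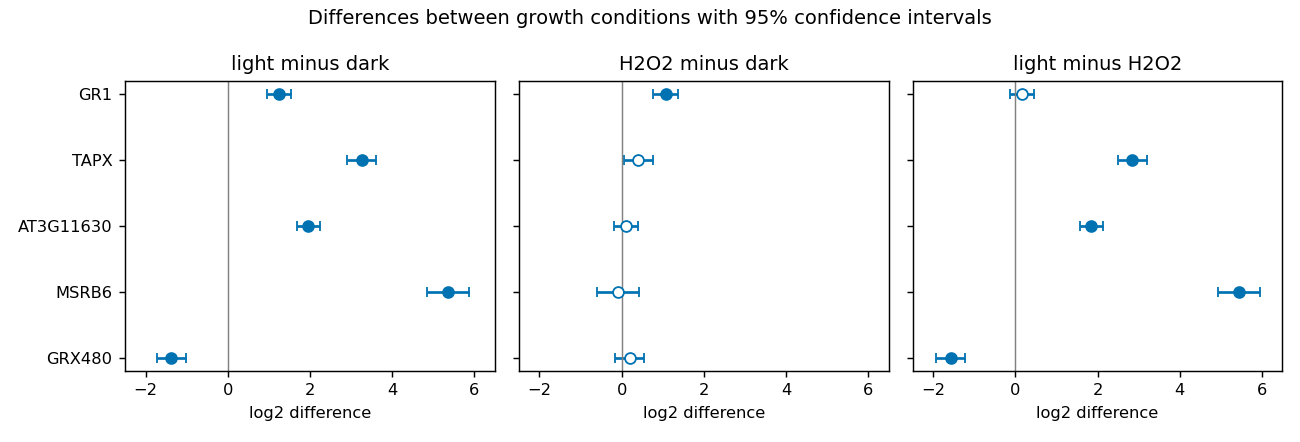
Log2 differences of the 5 genes for light minus dark, H2O2 minus dark and light minus H2O2, with 95% confidence intervals from limma; filled points have an adjusted p under 0.05 over all probe sets. Only GR1 is filled for H2O2 minus dark, at 1.07, and only GR1 is open for light minus H2O2, at 0.17. Under control centring, MSRB6 turns to 0.69 for H2O2 minus dark and GRX480 is no longer called for light minus dark.

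MSRB6 belongs to the methionine sulfoxide reductases of type B, which reduce the R form of methionine sulfoxide. It had the largest light difference of the 5 genes. Its log2 level was 10.19 and 9.87 on the light arrays, 4.95 and 4.22 on the H2O2 arrays, and 4.68 and 4.68 on the dark arrays. MSRB6 was thus dim in the H2O2 and dark groups, where the arrays overlapped and the H2O2 replicates differed by 0.73, the widest gap between replicates among the 5 genes. Light minus dark was 5.36 ± 0.23 (SE, 2 arrays in each group, limma adjusted p = 3.23e-07), and only 0.0923% of tested probe sets had a larger rise. Light minus H2O2 was 5.45 ± 0.23 (limma adjusted p = 4.25e-07). As the lower side is dim, the size is uncertain; the light mean lay 4.87 above the dim bound, which is 29.2-fold. H2O2 minus dark was -0.090 ± 0.23 and was not called (limma adjusted p = 0.834), with a 95% interval of -0.60 to 0.42. It turned to 0.28 without H2O2 replicate 2 and to 0.69 under control centring, neither of them called.

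MSRB3, MSRB4, MSRB5 and MSRB6 follow each other on chromosome 4 with 0 protein-coding genes between neighbours in the RefSeq gene table of TAIR10.1. Of these, MSRB3, MSRB5 and MSRB6 were measured. Neither measured neighbour was called higher in light than in the dark. MSRB5 had 10.63 and 10.29 in light, 9.86 and 9.64 with H2O2, and 10.29 and 10.23 in the dark, so that its light and dark arrays overlapped. Its light minus dark was 0.20 ± 0.16 (limma adjusted p = 0.345). MSRB5 fell with H2O2 by 0.51 ± 0.16 at the edge of the threshold (limma adjusted p = 0.0498). That call ended without any 1 of the 4 dark and H2O2 arrays (limma adjusted p = 0.0944 to 0.248) and with quantile normalization (0.0535), and the value turned to 0.27 under control centring. MSRB3, an enzyme of the endoplasmic reticulum, had 7.01 and 6.78 in light, 7.20 and 7.55 with H2O2, and 8.10 and 7.76 in the dark. MSRB3 was lower in light than in the dark, by a log2 difference of -1.03 ± 0.18 (limma adjusted p = 0.00114), and its H2O2 minus dark of -0.55 ± 0.18 was not called (limma adjusted p = 0.0598). It was called, at a limma adjusted p of 0.0443 to 0.0482, without the dimmest 40% of probe sets, with quantile normalization and with a trended variance prior. It ran from -0.732 to -0.376 with 1 array left out. Under control centring it turned to 0.225 and was not called. MSRB9 was lower in light at -1.15 ± 0.13 (limma adjusted p = 7.57e-05), with 9.91 and 9.77 in light, 10.77 and 10.81 with H2O2, and 10.97 and 11.00 in the dark. Under control centring, MSRB3 and MSRB9 kept a negative light minus dark difference, of -0.34 and -0.46, but were not called. MSRA5, of the unrelated type A enzymes that act on the S form, had a light minus dark of -0.34 ± 0.18 that was not called (limma adjusted p = 0.146) and turned to 0.35 with that centring. Of 14 genes on the methionine sulfoxide reductase list 5 were measured, and MSRB6 was the single one called higher in light than in the dark. Against H2O2, MSRB5 was also called higher in light, by 0.71 ± 0.16 (limma adjusted p = 0.00586). Under control centring that MSRB5 value was 0.62 and not called (limma adjusted p = 0.645).

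**Figure D3:**
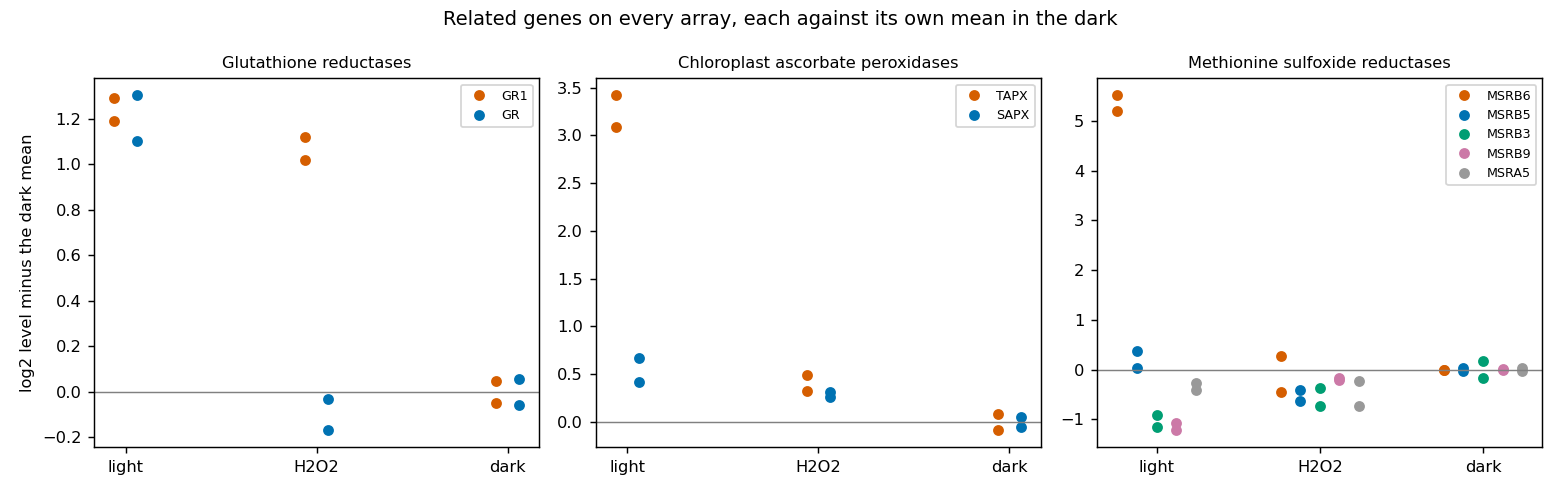
Log2 level of related genes on every array minus each gene's own mean in the dark, with light, H2O2 and dark from left to right and 2 points per gene and group; the vertical scales of the panels differ. GR1 and GR lie close together in light and apart with H2O2, TAPX exceeds SAPX in light, and MSRB6 stands alone among the methionine sulfoxide reductases in light. Under control centring, H2O2 minus dark is above 0 for all 9 genes, and light minus dark of MSRA5 turns to 0.35.

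GRX480, also named ROXY19, is a glutaredoxin of the land-plant CC class that binds TGA transcription factors and is known for damping jasmonate-responsive transcripts under salicylic acid. It was the one of the 5 genes that was lower in light. Its log2 level was 4.46 and 4.82 on the light arrays, 6.15 and 6.28 on the H2O2 arrays, and 5.96 and 6.08 on the dark arrays. The light arrays were dim and lay under all others, and the H2O2 arrays lay just above the dark arrays. Light minus dark was -1.38 ± 0.16 (SE, 2 arrays in each group, limma adjusted p = 7.96e-05), and 5.96% of tested probe sets had a larger fall. It was -0.69 and not called (limma adjusted p = 0.316) under control centring. Light minus H2O2 was -1.57 ± 0.16 (limma adjusted p = 4.75e-05), and it was called under every alternative tried. H2O2 minus dark was 0.19 ± 0.16 and was not called (limma adjusted p = 0.442), with a 95% interval of -0.16 to 0.55. PDF1.2, a jasmonate-responsive defensin gene that GRX480 has been shown to repress when overexpressed, was dim in all groups. Its light minus dark was -0.12 ± 0.15 and its H2O2 minus dark -0.39 ± 0.15, neither of them called, and both turned positive, to 0.57 and 0.39, with that centring. Of 9 genes on the list of TGA factors and their salicylic acid and jasmonate targets, PDF1.2 was the single one measured here.

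Glutaredoxins went both ways between light and dark, but under control centring none was called lower in light than in the dark. Of 20 measured glutaredoxins other than GRX480, 9 were higher and 5 lower in light than in the dark, with a median log2 difference of 0.23. Those lower included ROXY2 at -1.89 ± 0.13 (limma adjusted p = 3.78e-06) and ROXY1 at -1.02 ± 0.16 (limma adjusted p = 0.000519), both CC-class genes of floral development. GRXC1, of the class that all eukaryotes share, was lower by -1.35 ± 0.16 (limma adjusted p = 0.000102). Under control centring, light minus dark was -1.20 for ROXY2, -0.34 for ROXY1 and -0.66 for GRXC1, none of them called. Light minus H2O2 under that centring was -1.71 for ROXY2, -1.10 for ROXY1 and -1.37 for GRXC1. ROXY2 and GRXC1 were called there (limma adjusted p = 0.00639 and 0.0445), and ROXY1 was not (0.154). The largest rise was that of AT1G03020, at 3.17 ± 0.16 (limma adjusted p = 7.07e-07), with 6.45 and 6.09 in light, 3.22 and 3.05 with H2O2, and 3.02 and 3.18 in the dark; it is dim with H2O2 and in the dark. AT4G15660, AT4G15670, AT4G15680, AT4G15690 and AT4G15700 follow each other on chromosome 4. The 4 measured ones, without AT4G15670, were all higher in light, by 0.62, 1.55, 1.53 and 1.32 in that order. AT4G15660 and AT4G15700 were dim in the dark. Whether probe sets of such close copies also bind RNA of their neighbours was not tested. The call of AT4G15660 ended without dark replicate 1 (limma adjusted p = 0.155), without light replicate 2 (0.127) and with quantile normalization (0.0598). Under control centring AT4G15660 was at 1.30 and AT4G15700 at 2.01, both called. With H2O2, 2 of these 20 glutaredoxins fell and 18 were not called. The larger fall was that of AT2G20270, at -0.56 ± 0.13 (limma adjusted p = 0.0161). Its call ended without dark replicate 2 (limma adjusted p = 0.0972), H2O2 replicate 1 (0.0954) or H2O2 replicate 2 (0.0641), and the value turned to 0.22 under control centring.

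Of the thioredoxin list, which holds the electron donors of peroxiredoxins and of light-activated chloroplast enzymes, 8 of 23 genes were measured, and 6 were higher and 2 lower in light. TRXF2, a thioredoxin that activates Calvin cycle enzymes, was higher in light by 4.06 ± 0.20 (limma adjusted p = 6.24e-07). THX and ty2, thioredoxins x and y2 of the chloroplast, which can reduce peroxiredoxins, were higher by 2.12 ± 0.14 and 2.11 ± 0.15, and AT2G04700 on that list by 1.79 ± 0.13. TY1, thioredoxin y1, was lower in light at -1.42 ± 0.16 (limma adjusted p = 6.84e-05), and under control centring it was -0.73 and not called (0.295). TY1 fell with H2O2 by 0.63 ± 0.16 (limma adjusted p = 0.0223), a call that ended without any 1 of the 4 dark and H2O2 arrays (limma adjusted p = 0.0771 to 0.116), and the value turned to 0.15 under control centring.

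All 3 measured genes of ascorbate and tocopherol synthesis were higher in light. VTC4, a phosphatase of ascorbate synthesis, was higher by 2.40 ± 0.14 (limma adjusted p = 1.58e-06) and GLDH, the mitochondrial enzyme of the last step to ascorbate, by 0.84 ± 0.17 (limma adjusted p = 0.00289). GLDH also rose with H2O2, by 0.58 ± 0.17 (limma adjusted p = 0.0419). That call ended without any 1 of the 4 dark and H2O2 arrays (limma adjusted p = 0.0734 to 0.214), with the replicate block (0.0565), with quantile normalization (0.0978) and under control centring (1.36, 0.0507). Light minus dark of GLDH was 1.53 and called under that centring. Of 12 superoxide dismutase and catalase genes 2 were measured, and both were lower in light. AT3G56350, on that list, was lower by -0.90 ± 0.19 between 2 dim levels, and CCS, the copper chaperone of superoxide dismutase, by -0.89 ± 0.13 (limma adjusted p = 0.000483). Under control centring they were at -0.21 and -0.20, and neither was called (limma adjusted p = 0.752 and 0.763). AT3G56350 rose with H2O2 by 1.26 ± 0.19 (limma adjusted p = 0.0027), from a dim level in the dark, and by 2.04 under control centring. None of 8 glutathione peroxidase genes was measured, that is, had a probe set that the annotation used names for it alone. Of 8 genes of monodehydroascorbate and dehydroascorbate reductases, 1 was measured. That gene, ATMDAR2, was not called in light, at 0.14 ± 0.14, or with H2O2, at -0.16 ± 0.14. The H2O2 value was 0.62 when arrays were centred on the hybridisation controls.

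Over the 10 redox lists without the 5 genes, 44 of 127 genes were measured. In light 24 were higher and 11 lower than in the dark, which is 54.5% and 25.0% beside 23.0% and 25.0% of all probe sets. The lists were also chosen with earlier results of these data known, so such shares are descriptive only. Under control centring limma called 20 higher and 0 lower, with 1 lower at an unadjusted p under 0.05. The median log2 difference of light minus dark was 0.50, beside -0.064 for all probe sets. Between light and H2O2, 23 were called higher in light and 7 lower. That is 52.3% and 15.9%, beside 17.4% and 22.0% of all probe sets. Under control centring 8 were called higher and 3 lower in light than with H2O2. With H2O2, 3 rose (NTRC, AT3G56350 and GLDH), 5 fell (MSRB5, AT2G20270, AT5G18600, ATHM2 and TY1) and 36 were not called. That is 18.2% called beside 20.5% of all probe sets, near the background. By direction it is 6.82% higher and 11.4% lower, beside 12.3% and 8.18% of all probe sets. Under control centring limma called 2 higher and 0 lower, with 0 lower at an unadjusted p under 0.05. The median there was -0.087 and turns positive under control centring. The number called with H2O2 was 8, but 3 without dark replicate 1, 2 without dark replicate 2, 4 without H2O2 replicate 1 and 2 without H2O2 replicate 2.

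**Figure D4:**
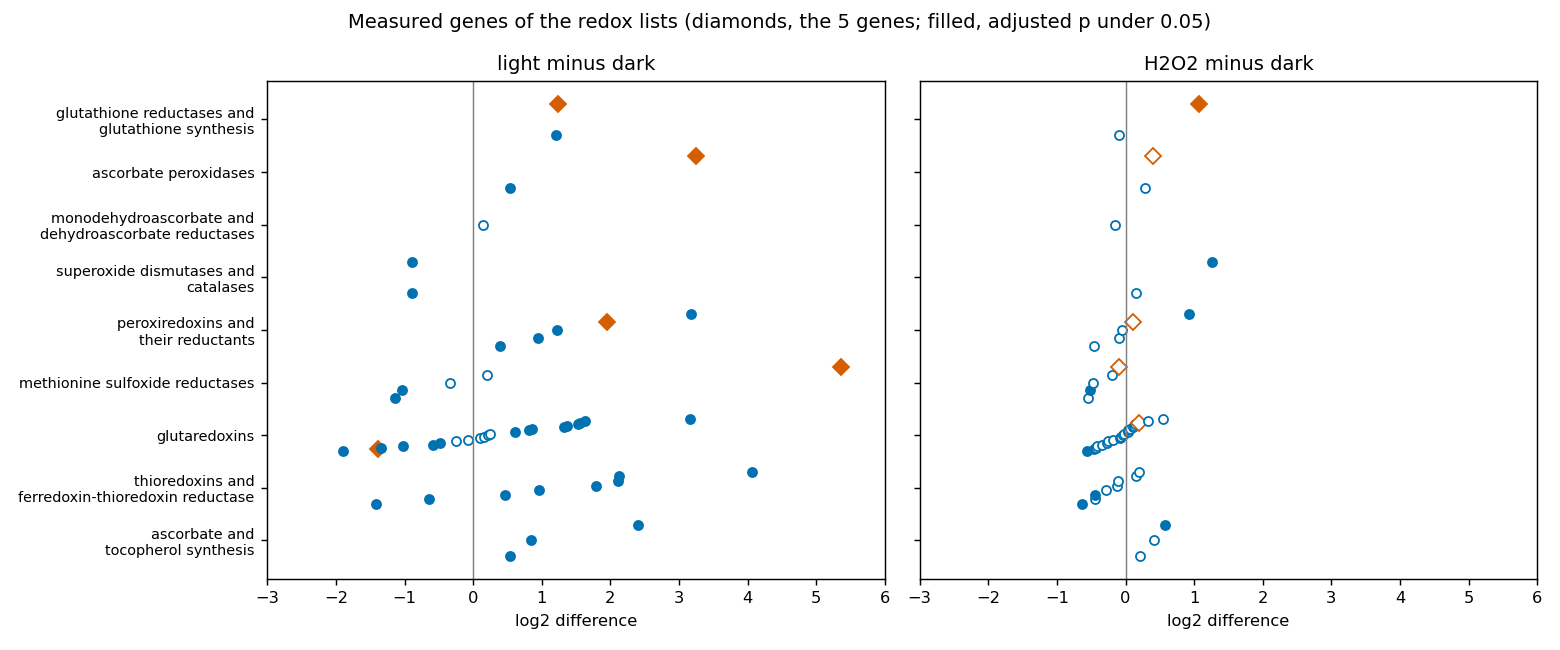
Log2 difference of every measured gene on the redox lists for light minus dark and H2O2 minus dark, 1 point per gene, spread vertically by rank within its list; diamonds are GR1, TAPX, AT3G11630, MSRB6 and GRX480, and filled points have a limma adjusted p under 0.05. Among the other 44 genes 35 are filled for light and 8 for H2O2; under control centring these numbers are 20 and 2, and every H2O2 difference lies above 0.

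The genes nearest in pattern were found by the root mean square (RMS) difference over the 6 arrays, after each probe set's own mean was taken off. For GR1 they were AT3G27350, AT1G70100 and AT4G11790, at RMS differences of 0.055 to 0.070 on the log2 scale. For TAPX they were AT5G48790, AT5G08650 and AT1G76450, at 0.089 to 0.10, and for AT3G11630 they were AT1G32160, AT1G44920 and AT2G21860, at 0.049 to 0.063. MSRB6 had more distant neighbours, AT3G56290, AT1G22690 and AT3G57020, at 0.155 to 0.307. For GRX480 they were AT1G34300, AT2G30930 and AT5G16880, at 0.064 to 0.092. None of these 15 is on the redox lists. With 1 array left out, between 0 and 3 of the 3 nearest genes were still among the nearest, so these neighbours are not fixed by 6 arrays. GR1 kept 1 of its 3 in each of these 6 fits, and 0 with quantile normalization. With 1 array left out TAPX kept 1 to 2, AT3G11630 0 to 2, MSRB6 1 to 3 and GRX480 0 to 3.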

How the data were processed

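Total RNA was hybridised to 6 1-colour Affymetrix ATH1 arrays in 3 groups of 2, grouped by the sample titles. The authors deposited log2 expression values for 22810 probe sets. RMA and limma are named in the submitters' processing notes. The sources used here do not give their versions or settings, and log2 is inferred from a range of 2.22 to 14.23. The arrays give no counts, so their number limits the precision.

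Without the 64 control probe sets, 22746 entered 1 model of all 6 arrays, fitted in R 4.3.3 by lmFit and eBayes of limma 3.58.1, with 3 residual and 5.84 prior degrees of freedom. P-values were 2-sided and adjusted by Benjamini-Hochberg within each comparison, with 0.05 as the threshold and no filter on dim signals. The steps were tested on simulated data. An exact permutation test of 2 against 2 arrays cannot go below p = 0.333 and was not used.

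Names came from the platform annotation, updated by gene identifier through the RefSeq table of TAIR10.1 (13513 single-gene probe sets, 13436 matched, 503 with several genes, 8730 unnamed here). The probe set with the highest mean stood for a gene. The 5 genes and the lists were chosen with earlier results of these data known. Named were the 5 genes, genes of 10 redox lists (132 genes, 49 measured) and of marker lists, the called ones with the largest change first, and the 3 genes nearest in pattern. No coordinates are given, since no build is named for the arrays. Alternatives left out each array, added the replicate number as a block, dropped the dimmest 40% of probe sets, used quantile normalization, centring on 18 hybridisation control probe sets, the arrays of the compared groups alone, or a trended prior.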

Additional observations from a re-analysis of the deposited data

How the results depend on the processing

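For the 5 genes every call between light and H2O2 and every H2O2 call was kept under the 12 alternatives tried, and so were the light against dark calls but 1. For any 1 comparison these 12 are not all distinct. Leaving out either array of the group not compared gave the same fit as the compared groups alone. GRX480 in light against dark was -0.692 with centring on the hybridisation controls and not called. That centring adds 0.689 to every light minus dark difference, and the cause of the shared shift was not tested. MSRB6 with H2O2, not called, turned to 0.689 with that centring and to 0.275 without H2O2 replicate 2. That centring called 2379 probe sets for H2O2 (98.9% higher), 5261 for light against dark (88.2% higher) and 2576 for light against H2O2 (54.4% higher), and 2, 20 and 11 genes of the redox lists in the same order. The deposited values called 4656 (60.0% higher), 10920 (48.0% higher) and 8981 (44.2% higher). With 1 array left out, 2135 to 4949 probe sets and 2 to 8 redox list genes were called for H2O2. The other values that changed direction were none of them called under the alternative. With that centring H2O2 differences turned to 0.677 for GR, 0.732 for SRX, 0.315 for AT3G52960, 0.679 for PRXIIF, 0.225 for MSRB3, 0.268 for MSRB5, 0.588 for MSRB9, 0.303 for MSRA5, 0.718 for GRXC1, 0.761 for ROXY1, 0.506 for ROXY2, 0.215 for AT2G20270, 0.492 for THX, 0.149 for TY1, 0.653 for ty2, 0.392 for PDF1.2, 0.695 for LHCB4.1 and 0.624 for ATMDAR2, and light against dark to 0.348 for MSRA5 and 0.571 for PDF1.2. With quantile normalization H2O2 differences were -0.002 for AT4G15690 and -0.069 for AT4G15660. The replicate numbers share no stated origin, and deviations of same-numbered arrays correlated at -0.032, 0.069 and -0.0019 between groups; with the replicate block 4590, 10905 and 8972 probe sets were called for H2O2, light against dark and light against H2O2, and no call of the 5 genes changed. Where 1 array was left out, H2O2 differences ran from -0.454 to 0.275 for MSRB6, -0.248 to 0.127 for GRXC1, -0.056 to 0.121 for AT1G03020, -0.108 to 0.333 for AT4G15680, -0.18 to 0.263 for AT4G15660, -0.197 to 0.161 for ROXY1, -0.028 to 0.425 for TRXF2 and -0.286 to 0.035 for ty2, and light minus H2O2 from -0.118 to 0.386 for MSRA5. In those fits the lone array of a group is assumed to vary like the other groups. Called redox list genes then numbered 31 to 35 for light against dark and 27 to 32 for light against H2O2. Of the 3 nearest genes of each, 0 to 3 were shared. With 2 arrays per group, the median SE of a difference was 0.149, and differences between dim levels are the least certain.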
